A study of Mus musculus with 2 samples.

Results

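The genes described here are the cyclins, the cyclin-dependent kinases (CDKs), the E2F transcription factors and the genes of the DNA replication fork, in the intestine of APCmin mice. Members were taken by gene symbol: every gene of the expression table whose name begins as a numbered cyclin (Ccna1, Ccnd2), Cdk, E2f, Cdc, Orc, Gins, Rfc or Rpa gene, together with the genes for polymerases alpha, delta and epsilon and Pcna, Prim1, Prim2, Rrm1 and Rrm2. This rule used no measured value and gave 115 of 18919 genes, which lie on 19 chromosomes. A name rule also takes genes of other function, because Cdc names were given to many unrelated genes. The members were therefore placed by textbook role into 17 classes, of which 12 serve the cell cycle or replication (68 genes) and 5 have other functions (47 genes, such as Cdc42 and its effectors).

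The study holds 2 RNA-seq libraries of intestine, with no segment named, from C57BL/6 mice aged 2 months. The control library is labelled APCmin, and the knockout library APCmin; Setd2IEC-/-. Both groups thus carry the Min allele of Apc, and the second also carries a Setd2 deletion marked IEC, which the labels do not spell out. Each library was made from mixed RNA of 3 littermates, and 1 library stands for each genotype, so no difference below has a replicate check and no p-value is given. The driver of the Setd2 deletion is not given in the sources used here, so which cells keep the gene is not known. Setd2 itself, which checks the labels, was at 6.87 FPKM (513 counts) for control and 3.47 FPKM (254 counts) for knockout. Wherever a pair of values is given below, control comes first. In a tissue library, fewer cells of a type and less RNA per cell cannot be told apart.

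Apc limits Wnt signalling, and mice with the Min allele develop intestinal adenomas. The Setd2 protein is a histone H3 lysine methyltransferase that acts on transcribed genes. In the intestine, division takes place in the crypts, and the differentiated cells of the villi have left the cell cycle. As cells commit to division, D cyclins with Cdk4 or Cdk6, and then E cyclins with Cdk2, phosphorylate the retinoblastoma family, which frees E2F factors to switch on genes for DNA synthesis. The origin recognition complex marks origins, Cdc6 loads the helicase there, Cdc7 and Cdc45 with GINS fire it, and polymerases, the Pcna clamp and its RFC loader copy the DNA. Cyclin B with Cdk1 then drives mitosis, which the anaphase promoting complex with Cdc20 brings to an end.

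A sequence that E2F factors recognise was found in 14 of 54 promoters of cell cycle and replication members and in 0 of 41 of the others. Promoters were taken from RefSeq (build GRCm38.p6, the coordinates of mm10), 250 bases before to 50 after the start of a gene, using the first window listed. Of the members, 95 matched by gene identifier. Both forms of the E2F motif searched, TTTCCCGC and TTTGGCGC, were looked for on both strands. At least 1 of them was found in 14 of 54 cell cycle and replication promoters (25.9%) and in 0 of 41 promoters of members of other function, beside 2.92% of the 10408 promoters of measured genes and 1.63% of all 27025. These matches describe the letters of the window only. The stretches around them are shown to let the shared core and its varying flanks be seen; each is read 5′ to 3′ on the strand where the motif reads forward, with the motif in capitals. Stretches with TTTCCCGC came from 10 genes.
Cdc6 (chr11:98908002-98908031, - strand): accccaggcgaTTTCCCGCtctccaccggc
Cdk2 (chr10:128705173-128705202, + strand): agctgcacaacTTTCCCGCagttcctggtt
E2f3 (chr13:29986056-29986085, + strand): cgaaactcagaTTTCCCGCcggcttttcaa
E2f7 (chr10:110745230-110745259, - strand): acgcgggagcgTTTCCCGCggggacgcggg
Gins3 (chr8:95633507-95633536, - strand): ttcaaactcgcTTTCCCGCgccgcactcgc
Orc3 (chr4:34614965-34614994, - strand): ccatgcctcccTTTCCCGCacgccccgcct
Pold1 (chr7:44548766-44548787, + strand): gctTTTCCCGCcacaagatacg
Pold3 (chr7:100121467-100121496, - strand): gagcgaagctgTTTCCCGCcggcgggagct
Pole4 (chr6:82652890-82652919, + strand): atttcggccccTTTCCCGCgccgggtagag
Rfc3 (chr5:151651190-151651219, + strand): gacagtagagtTTTCCCGCgagcgcgaaag

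Stretches with TTTGGCGC came from 4 genes.
Cdc25a (chr9:109875501-109875530, + strand): ggtgaattccgTTTGGCGCcaactaggaaa
E2f2 (chr4:136172302-136172323, + strand): gcggcatatagTTTGGCGCtaa
Pola1 (chrX:93632275-93632304, + strand): gcgggagtgcaTTTGGCGCcctgtgatgac
Pole2 (chr12:69228162-69228191, + strand): catgttcgcgaTTTGGCGCcaccgccgacg

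Motifs linked to mitotic genes were also searched on both strands. They were TTTGAA and TTCGAA, the 2 forms of the cell cycle homology region, and CCAAT, the box that NF-Y recognises, and the GC box GGGCGG was searched as well. CCAAT was present in 31 of 54 cell cycle and replication promoters (57.4%), in 15 of 41 of the others (36.6%) and in 38.8% of promoters of measured genes. TTTGAA or TTCGAA was present in 11 of 54 (20.4%), in 8 of 41 of the others (19.5%) and in 14.4% of promoters of measured genes. GGGCGG was present in 39 of 54 (72.2%), in 31 of 41 of the others (75.6%) and in 62.3% of promoters of measured genes. For these 2 searches the divisions thus had similar shares. The mitotic members Cdc20, Cdk1 and Ccnb2 had TTTGAA and CCAAT together, and Ccnb1 had CCAAT without it. The pair was not limited to mitotic members: E2f3, E2f8, Cdc45 and Gins3 had it too, as did Cdk16 and Cdc42ep4 of other function. The 3 whole windows below were picked by rule: the member with the highest ratio between the libraries (Cdc20), the activator E2F with the highest (E2f2) and the cell cycle member with the lowest (Pold4), each among genes with 50 or more counts. Capitals mark every match to any of the 6 motifs on either strand, and no match overlapped another.
Cdc20 (chr4:118437294-118437593, - strand): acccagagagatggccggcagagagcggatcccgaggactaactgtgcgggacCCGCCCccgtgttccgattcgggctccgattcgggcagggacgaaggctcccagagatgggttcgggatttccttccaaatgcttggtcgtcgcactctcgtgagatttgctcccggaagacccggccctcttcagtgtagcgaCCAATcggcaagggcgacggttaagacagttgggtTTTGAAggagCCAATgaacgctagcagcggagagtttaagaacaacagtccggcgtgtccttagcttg
E2f2 (chr4:136172024-136172323, + strand): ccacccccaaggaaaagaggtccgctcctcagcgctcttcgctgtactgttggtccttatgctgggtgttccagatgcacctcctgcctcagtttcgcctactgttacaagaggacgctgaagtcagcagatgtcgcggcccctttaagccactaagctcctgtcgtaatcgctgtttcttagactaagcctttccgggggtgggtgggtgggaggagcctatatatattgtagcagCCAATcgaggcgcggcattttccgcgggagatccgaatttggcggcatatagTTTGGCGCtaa
Pold4 (chr19:4231643-4231942, + strand): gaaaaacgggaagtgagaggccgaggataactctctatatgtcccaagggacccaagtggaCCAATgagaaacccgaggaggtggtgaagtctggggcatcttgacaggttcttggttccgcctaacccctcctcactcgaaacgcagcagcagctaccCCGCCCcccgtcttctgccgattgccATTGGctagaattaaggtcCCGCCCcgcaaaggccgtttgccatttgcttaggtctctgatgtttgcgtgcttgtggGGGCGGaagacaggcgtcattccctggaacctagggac

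In the Cdc20 window, which belongs to the gene for the mitotic activator of the anaphase promoting complex, CCAAT began at position -53 and again at -8 from the start site, with TTTGAA between them at -18. In the E2f2 window TTTGGCGC began at position 40 and CCAAT at -13. The Pold4 window, of a small polymerase delta subunit, held CCAAT on both strands and 3 GC boxes but neither form of the E2F motif and no TTTGAA.

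Cell cycle and replication transcripts were mostly slightly higher in the Setd2 knockout library, and none passed 2-fold on the scale used here. A gene was counted as measured when it reached 1 FPKM (fragments per transcript length and mapped reads) in at least 1 library, which 108 of 115 members and 13253 genes in all did. Differences between pools are given as the log2 ratio of knockout over control FPKM after adding 1 FPKM to both, where 1 or more is at least 2-fold higher and -1 or less at least 2-fold lower. By this measure 0 of 108 members were at least 2-fold higher and 0 were lower, beside 2.78% and 1.28% of all measured genes. The ratio was above 0 for 86 of the 108 (62.5% of all measured genes) and below 0 for 22 (37.2%).

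Both divisions were counted in the same way. Of the 65 measured members of the cell cycle and replication classes, 56 were above 0 and 9 below, with a median log2 ratio of 0.26 against 0.08 for all measured genes. Their summed FPKM was 666.13 and 848.07, an FPKM ratio of 1.27. The 43 measured members of other function had 30 above 0, a median of 0.11 and summed FPKM of 1249.89 and 1282.02. No test of the difference between these divisions was made, since genes are not replicates. When the libraries were scaled to a median ratio of 0 over all genes, 47 of the 65 and 24 of the 43 were above 0, and 50% of all measured genes. With TMM scaling, which trims extreme genes, the counts were 46 and 22, beside 48.4% of all genes. Among those that then lay below 0 were Ccnd3, Pold2, Pole, Prim1, Rfc1, Rfc4, Rpa3, Cdc16 and Cdc27, whose values below are near level.

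Counting error gives another view of single genes. The ratio of CPM, the count as a share of its library's total, was given an exact 95% Clopper-Pearson interval, which covers counting error only and no difference between mice. This interval lay wholly above 1 for 39 members (28% of all measured genes) and wholly below 1 for 5 (12.5%). Among the cell cycle and replication members 26 of 65 lay above 1 and 0 below, and among the others 13 and 5 of 43. Scaled to a median ratio of 0 over all genes, the counts were 21 above and 3 below (Pold1, Pold4 and Cdc14b) against 8 above and 9 below for the others. With TMM they were 19 and 3 against 8 and 9. The intervals of E2f1, E2f8, Cdc7, Rfc2, Rpa1, Pole3 and Cdc26 then no longer lay above 1. Among the others, those of Cdk13, Cdk2ap2, Cdc34, Cdc37 and Cdc42bpb also came to include 1 with TMM. Those of Cdc42, Ccnl2, Cdk8 and Ccnt2 came to lie wholly below 1. The share of all measured genes was not counted under either scaling, so the rescaled counts have no background. An interval is narrower for abundant genes: the median control count was 177 for the cell cycle and replication members and 197.9 for all measured genes.

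**Figure D1:**
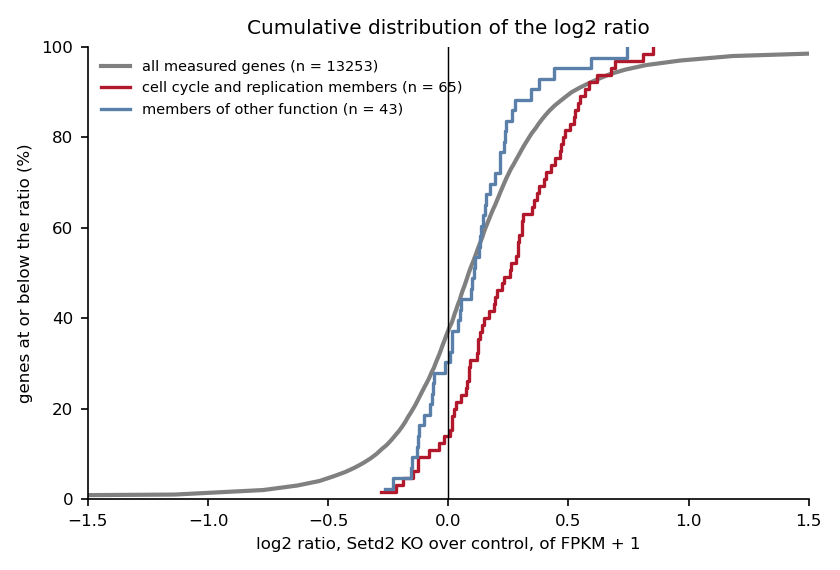
Cumulative share of genes (vertical axis, %) at or below each log2 ratio of knockout over control FPKM + 1 (horizontal axis) for all measured genes, cell cycle and replication members and members of other function. The curve of the 65 cell cycle and replication members lies to the right of that of all genes over most of its range (median 0.26 against 0.08), and no member reaches 1 or -1.

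Levels spanned a wide range. In the control library the measured cell cycle and replication members lay between 0.39 FPKM (E2f7) and 77.99 FPKM (Pcna), with a median of 6.77, and in the knockout library the median was 7.99. Members of other function were more abundant, with a control median of 15.95 and Cdc42, the small GTPase of cell polarity, highest at 189.31 FPKM. Under 1 FPKM in both libraries were 7 members: Ccna1 and Cdc20b, the pseudogene Cdk3-ps, Cdk15, Cdk5r1, Cdk5r2 and Orc1, of which Orc1 had the highest value (0.52). A further 4, Cdk14, Cdk20, E2f7 and Gins3, passed 1 FPKM in the knockout library alone, so that being higher there was a condition of their being counted.

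**Figure D2:**
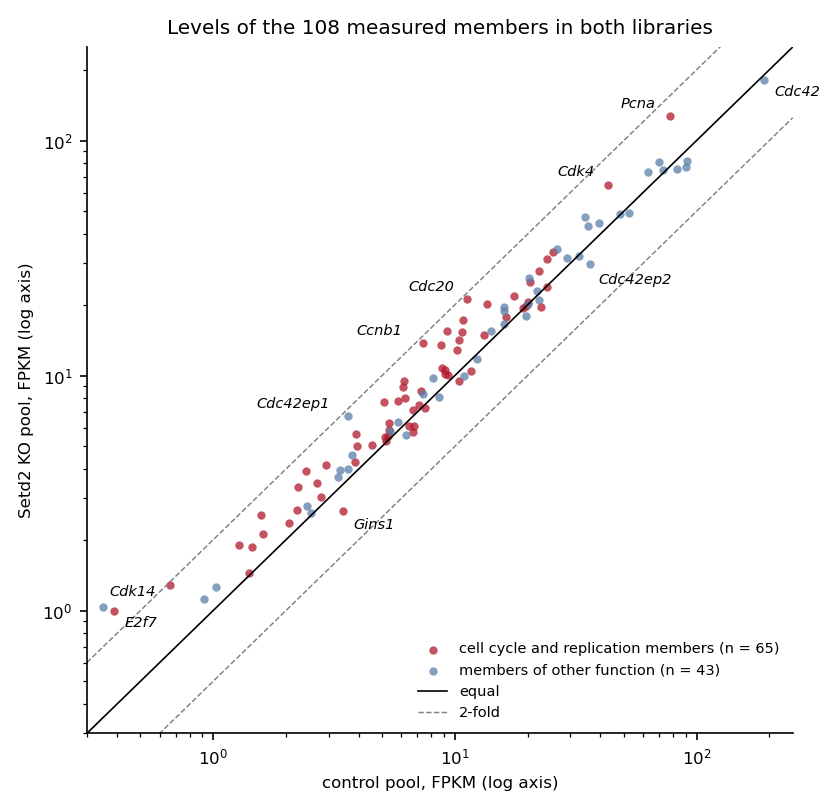
Each point is a measured member, with its FPKM in the control library (horizontal, log axis) and in the knockout library (vertical, log axis); the solid line marks equal levels and the dashed lines 2-fold. Points lie close to the line of equality over the whole range, and the 2 beyond the dashed line, E2f7 and Cdk14, have at most 1.04 FPKM.

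Among the cyclins of G1 and S phase, Ccnd1 differed most. Ccnd1, a D cyclin and a known Wnt target, was at 13.57 FPKM (458 counts) for control and 20.2 FPKM (669 counts) for knockout, a CPM ratio of 1.49 (95% counting interval 1.32 to 1.68). Ccnd2 was at 17.61 and 21.85 FPKM, a CPM ratio of 1.24 (1.13 to 1.36), while Ccnd3 was at 19.14 and 19.33, a CPM ratio of 1.01 (0.869 to 1.18). The order of the 3 D cyclins by level was thus Ccnd3, Ccnd2, Ccnd1 in control and Ccnd2, Ccnd1, Ccnd3 in knockout. The Ccnd1 share of their summed FPKM was 27.0% and 32.9%.

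The E and A cyclins act with Cdk2 at the start of and during S phase, and none of their intervals lay above 1. Ccne1 was at 2.92 and 4.17 FPKM from 52 and 73 counts, a CPM ratio of 1.43 (0.989 to 2.08). Ccne2 was at 2.79 and 3.04 FPKM and Ccna2 at 16.2 and 17.82, with ratios of 1.09 and 1.1 whose intervals also include 1. Ccna1, mainly a germ cell cyclin, had 2 and 6 counts.

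Cyclin B1 and Cdc20 had the highest ratios of the cell cycle and replication members with 50 or more counts. Ccnb1, the cyclin that activates Cdk1 at mitotic entry, was at 7.38 FPKM (151 counts) and 13.69 FPKM (275 counts), a CPM ratio of 1.86 (1.52 to 2.28). Its relative Ccnb2 was at 13.17 and 14.93 FPKM, a CPM ratio of 1.13 (0.921 to 1.40), an interval that does not overlap that of Ccnb1. Ccnb1 made up 35.9% of their summed FPKM in control and 47.8% in knockout. Ccnb2 was thus the more abundant B cyclin in both libraries.

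The 4 CDKs of the cell cycle were all above 0, beside 62.5% of all measured genes, and the intervals of Cdk4 and Cdk1 lay above 1. Cdk4, a partner of the D cyclins and the most abundant of them, was at 42.83 FPKM (511 counts) for control and 64.83 FPKM (759 counts) for knockout, a CPM ratio of 1.51 (1.35 to 1.70). Cdk1, the mitotic kinase, was at 8.72 and 13.43 FPKM, a CPM ratio of 1.54 (1.30 to 1.83). Cdk2 was at 9.13 and 10.6 FPKM and Cdk6, the other partner of the D cyclins, at 2.05 and 2.36, and both intervals include 1. Cdk6 made up 4.57% of the summed FPKM of Cdk4 and Cdk6 in control and 3.51% in knockout.

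Of the 8 E2F factors, 7 had log2 ratios above 0 and 5 had intervals above 1, beside 62.5% and 28% of all measured genes. With TMM the intervals of E2f1 and E2f8 included 1. E2f7, among the 7 and the 5, passed 1 FPKM in the knockout library alone. Among those that mainly activate transcription, E2f2 was at 5.11 FPKM (194 counts) and 7.69 FPKM (292 counts), a CPM ratio of 1.53 (1.27 to 1.85). E2f1 was at 2.24 and 3.36 FPKM, a CPM ratio of 1.51 (1.06 to 2.17), and E2f3 at 4.54 and 5.04 FPKM, a CPM ratio of 1.12 (0.921 to 1.37). E2f1 and E2f2 thus had similar ratios and E2f3 a lower one, although the interval of E2f3 overlaps both. E2f2 was the most abundant of the 3 in each library.

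Of the 5 E2Fs that mainly repress transcription, 3 had intervals above 1, beside 28% of all measured genes. Among the 3 was E2f7, which was measured through the knockout library alone. E2f4, which acts with pocket proteins in resting cells and was the most abundant E2F, was at 25.5 FPKM (455 counts) and 33.46 FPKM (586 counts), a CPM ratio of 1.31 (1.16 to 1.49). E2f8 was at 3.92 and 5.02 FPKM, a CPM ratio of 1.28 (1.01 to 1.63). Its partner E2f7 was at 0.39 and 1 FPKM from 19 and 48 counts, a CPM ratio of 2.57 (1.49 to 4.64) at a level barely within the measured range. E2f6 was at 5.32 and 6.27 FPKM with an interval that includes 1, and E2f5, the E2F below 0, at 6.77 and 6.11 FPKM, a CPM ratio of 0.902 (0.675 to 1.205).

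**Figure D3:**
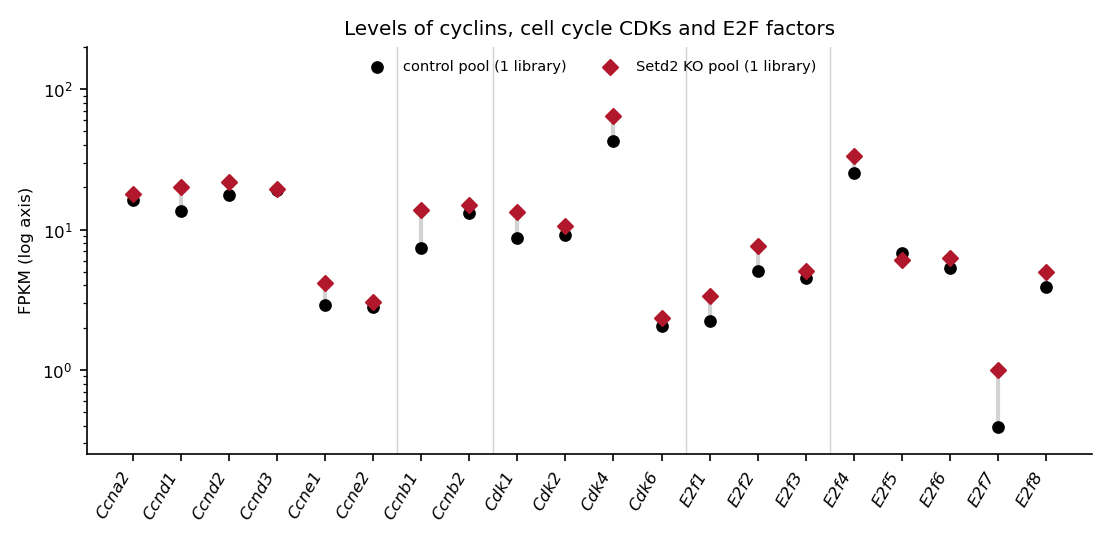
FPKM on a log axis of the measured G1, S and mitotic cyclins, cell cycle CDKs and E2F factors in the control library (circles) and knockout library (diamonds), 1 library each, joined by grey bars; vertical lines divide the classes. The bars are longest for E2f7, Ccnb1, Cdk1, Cdk4, E2f1 and E2f2, and of the 20 genes drawn E2f5 alone is lower in the knockout library.

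Origin genes divided by subunit. Orc2 was at 2.42 FPKM (76 counts) and 3.93 FPKM (122 counts), a CPM ratio of 1.64 (1.22 to 2.21), and Orc6 at 6.1 and 8.93 FPKM, a CPM ratio of 1.48 (1.12 to 1.97). Orc3, Orc5 and Orc4, which belong to the same complex, had ratios of 1.11, 1.07 and 0.980, with intervals that include 1. The intervals of Orc2 and Orc4 met only narrowly (1.2183 and 1.2215). The summed counts of the 6 subunits had a ratio of 1.17 (1.06 to 1.31).

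Of 7 genes that load and fire the helicase, 6 had log2 ratios above 0, beside 62.5% of all measured genes. Among the 6, Gins3 passed 1 FPKM in the knockout library alone. The intervals of Cdc7 and Cdc45 lay above 1, although with TMM that of Cdc7 included 1. Cdc7, the kinase that triggers firing, was at 1.57 FPKM (42 counts) and 2.56 FPKM (66 counts), a CPM ratio of 1.6 (1.07 to 2.42). Cdc45, which joins the helicase as it fires, was at 3.89 and 5.65 FPKM, a CPM ratio of 1.54 (1.12 to 2.12). Cdc6, the loader, was at 1.61 and 2.12 FPKM, with an interval of 0.941 to 1.85. These 3 genes rest on 42 to 101 counts a library, so their intervals are wide.

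GINS, the 4-subunit partner of Cdc45, showed no common direction. Gins1 was at 3.45 FPKM (33 counts) and 2.66 FPKM (21 counts), a count ratio of 0.648 (0.357 to 1.15), and Gins3 at 0.66 and 1.29 FPKM from 14 and 27 counts. Gins2 and Gins4 had ratios of 1.1 and 1.2 with intervals that include 1. For Gins1 the transcript length used by the authors was 1100 bases for control and 933.4 for knockout, so its FPKM differ less than its counts. The 4 genes together had 182 and 202 counts, a CPM ratio of 1.13 (0.921 to 1.39).

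Polymerase subunits differed from one another more than the polymerases did. For polymerase delta, the lagging strand enzyme, Pold3 was at 10.7 FPKM (285 counts) for control and 15.31 FPKM (400 counts) for knockout, a CPM ratio of 1.43 (1.23 to 1.67). The catalytic subunit Pold1 was at 6.7 FPKM (204 counts) and 5.76 FPKM (172 counts), a CPM ratio of 0.859 (0.697 to 1.06). Pold4 was at 22.82 and 19.49 FPKM, a CPM ratio of 0.854 (0.685 to 1.06), and Pold2 at 20.08 and 20.53, a CPM ratio of 1.02 (0.866 to 1.21). The interval of Pold3 lies above those of the other 3 subunits, and the summed FPKM of all 4 was 60.3 and 61.09.

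Polymerase epsilon, the leading strand enzyme, was uneven too. Pole3, a histone-fold subunit, was at 24.16 and 31.26 FPKM, a CPM ratio of 1.29 (1.02 to 1.65), and its partner Pole4 at 11.62 and 10.41, a CPM ratio of 0.895 (0.715 to 1.12). The catalytic subunit Pole was at 1.41 and 1.45 FPKM and Pole2 at 2.69 and 3.49, both with intervals that include 1. Polymerase alpha and primase, which lay down primers, were all above 0, although Prim1 was below 0 under both other scalings. Pola2 was at 8.85 and 10.8 FPKM with a ratio of 1.22 (0.9999 to 1.49). Pola1, Prim1 and Prim2 had ratios of 1.28, 1.06 and 1.2, and each interval includes 1.

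The clamp Pcna was the most abundant replication gene and, with 857 and 1366 counts, had the narrowest interval of them. Pcna was at 77.99 FPKM (857 counts) for control and 126.69 FPKM (1366 counts) for knockout, a CPM ratio of 1.62 (1.49 to 1.77). Of the RFC subunits that load it, Rfc5 was at 9.29 FPKM (143 counts) and 15.43 FPKM (233 counts), a CPM ratio of 1.66 (1.34 to 2.06). Rfc2 was at 20.37 and 25.12 FPKM, a CPM ratio of 1.23 (1.05 to 1.45). Rfc1, Rfc3 and Rfc4 had ratios of 1.04, 1.28 and 1.06 with intervals that include 1, and the interval of Rfc5 lies above that of Rfc1.

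Among the subunits of the single-strand binding protein, the largest differed most. Rpa1, the main DNA-binding subunit of replication protein A, was at 10.21 and 12.88 FPKM, a CPM ratio of 1.26 (1.07 to 1.48), while Rpa2 and Rpa3 had ratios of 1.12 and 1.01 with intervals that include 1. Ribonucleotide reductase makes deoxynucleotides. Its subunit Rrm2, which is made in S phase, was at 10.81 FPKM (210 counts) and 17.16 FPKM (327 counts), a CPM ratio of 1.59 (1.33 to 1.90), and Rrm1 was at 10.41 and 14.13 FPKM, a CPM ratio of 1.36 (1.18 to 1.56). For this enzyme both intervals lie above 1.

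**Figure D4:**
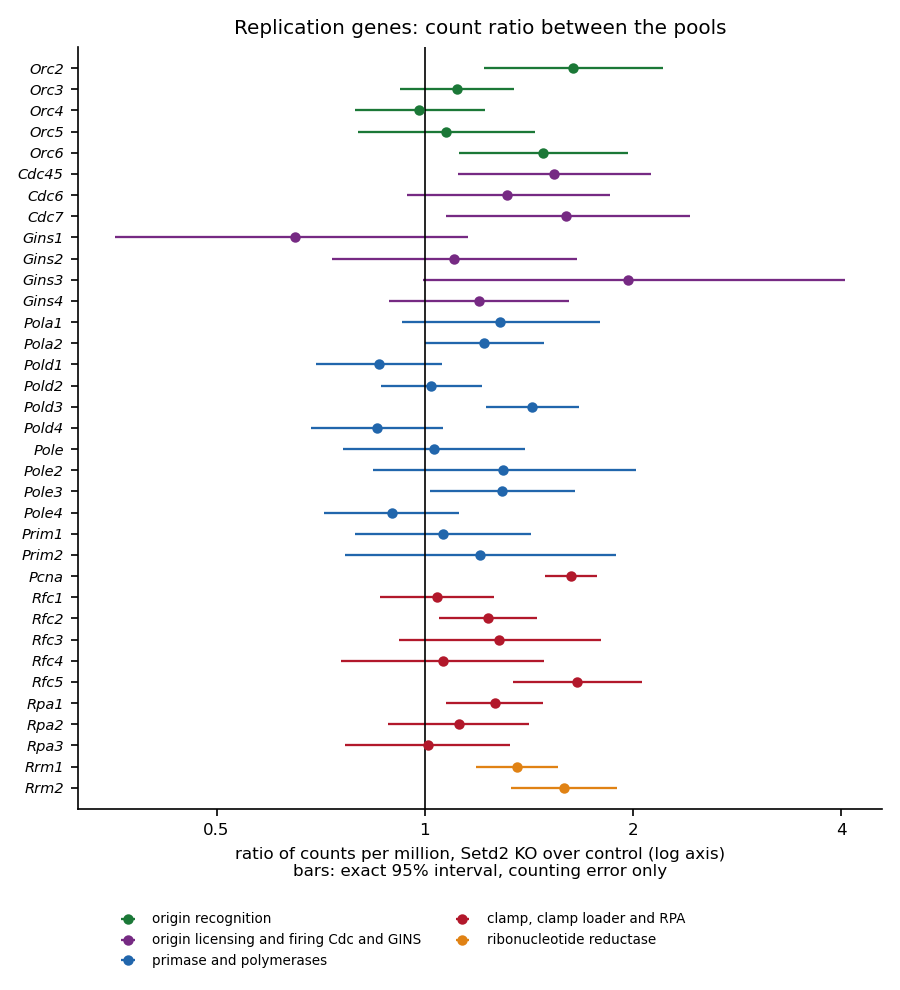
Ratio of CPM of knockout over control (horizontal, log axis) for 35 measured replication genes, coloured by class, with exact 95% counting intervals as bars. Pcna, Rfc5, Orc2 and Rrm2 lie near 1.6 with intervals above 1, Pold1, Pold4, Pole4, Orc4 and Gins1 lie to the left of 1 with intervals that include it, and Gins3 and Gins1 have the widest bars.

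Among mitotic regulators Cdc20 had the highest log2 ratio of any measured member (0.85). Cdc20 was at 11.22 FPKM (177 counts) and 21.06 FPKM (326 counts), a CPM ratio of 1.88 (1.56 to 2.27). The subunits of the anaphase promoting complex that it activates differed less: Cdc23 was at 5.79 and 7.78 FPKM, a CPM ratio of 1.34 (1.12 to 1.61), and Cdc26 at 22.34 and 27.86, a CPM ratio of 1.25 (1.001 to 1.56). Cdc16 and Cdc27 had ratios of 1.07 and 1.004 (0.844 to 1.19). The interval of Cdc20 lies above those of Cdc26, Cdc16 and Cdc27.

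The Cdc25 phosphatases remove the brake on CDKs, and the intervals of all 3 include 1. Cdc25a was at 24.03 and 23.73 FPKM, a CPM ratio of 0.988 (0.892 to 1.09), and Cdc25b at 7.5 and 7.28 FPKM, a CPM ratio of 0.964 (0.787 to 1.18). Cdc25c was at 1.28 and 1.9 FPKM from 22 and 32 counts, a CPM ratio of 1.48 (0.835 to 2.68). The Cdc14 phosphatases parted: Cdc14a was at 6.17 and 9.49 FPKM, a CPM ratio of 1.54 (1.31 to 1.81), and Cdc14b at 10.41 and 9.44 FPKM, a CPM ratio of 0.908 (0.801 to 1.03).

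**Figure D5:**
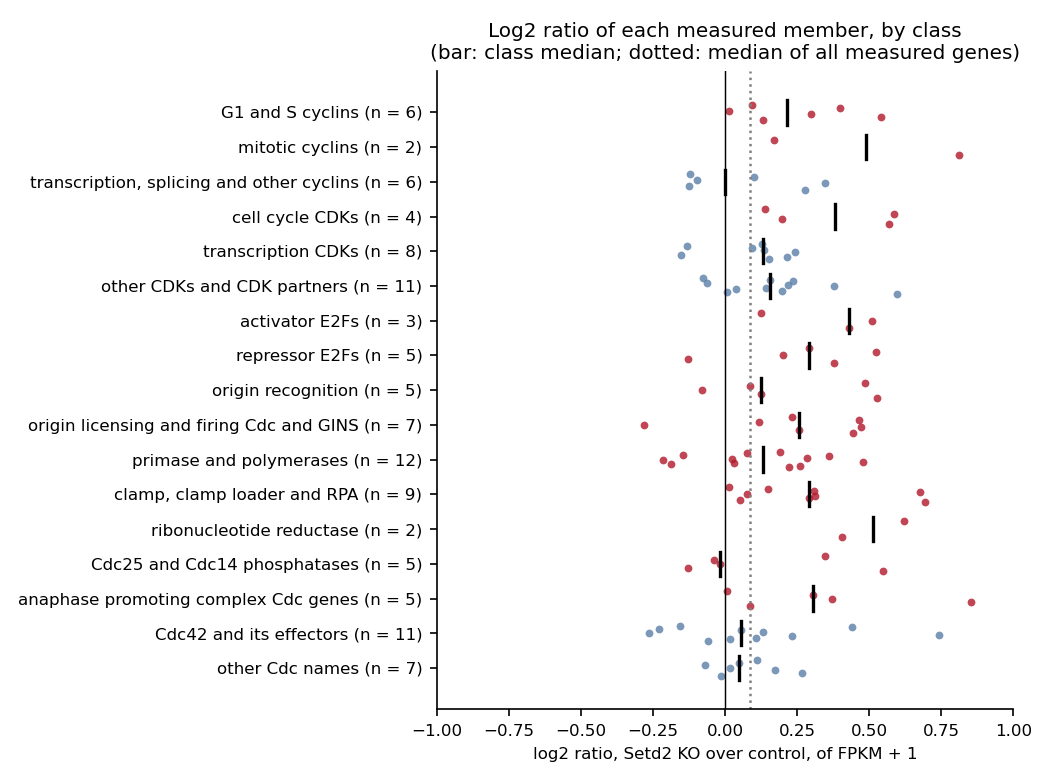
Log2 ratio of knockout over control FPKM + 1 (horizontal) for each measured member, by class (vertical); red points are cell cycle and replication members, blue points members of other function, bars class medians and the dotted line the median of all measured genes (0.08). Medians are highest for ribonucleotide reductase (0.51) and mitotic cyclins (0.49) and lowest for the Cdc25 and Cdc14 phosphatases (-0.02).

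Members whose names are alike but whose roles lie elsewhere went both ways. The class of transcription, splicing and other cyclins had 3 measured genes above 0 and 3 below, with a median of 0.0003. Ccnl1, a splicing cyclin, was at 20.18 and 25.91 FPKM, a CPM ratio of 1.28 (1.12 to 1.47), and Ccnl2 at 52.69 and 49.12, a CPM ratio of 0.932 (0.856 to 1.01). Ccng1, a p53 target, was at 15.95 and 19.56 FPKM. Ccng2, which is linked to cell cycle arrest and was the most abundant cyclin among the members, was at 82.76 and 75.85, a CPM ratio of 0.916 (0.857 to 0.980). Ccnt1 and Ccnt2, partners of Cdk9 in transcription elongation, had ratios of 1.08 and 0.911 with intervals that include 1.

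The CDKs of transcription had 6 of 8 above 0, beside 62.5% of all measured genes, and a median of 0.13. With TMM Cdk7, among the 6, was below 0. Cdk13 and Cdk12, which are close relatives that act on elongating polymerase, differed in direction, although with TMM the interval of Cdk13 included 1. Cdk13 was at 8.1 and 9.76 FPKM, a CPM ratio of 1.204 (1.07 to 1.36), and Cdk12 at 6.29 and 5.56, a CPM ratio of 0.861 (0.743 to 0.998). Cdk11b, the most abundant, was at 62.92 and 73.1 FPKM, a CPM ratio of 1.16 (1.08 to 1.25), and Cdk10 had a log2 ratio of 0.15. Cdk8, a kinase of the Mediator complex, was at 19.7 and 17.9 FPKM, and Cdk7, which activates other CDKs, at 5.4 and 5.83; both intervals include 1.

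Of the other CDKs and their partners, 9 of 11 measured were above 0, beside 62.5% of all measured genes. The 9 include Cdk14 and Cdk20, which passed 1 FPKM in the knockout library alone. With TMM Cdk16 and Cdk18 were below 0. Cdk14 was at 0.35 and 1.04 FPKM from 16 and 45 counts, a CPM ratio of 2.87 (1.59 to 5.43). Cdk2ap1 and Cdk2ap2, named for binding Cdk2, had ratios of 1.31 (1.12 to 1.53) and 1.16 (1.04 to 1.31), and Cdk5rap1 a log2 ratio of 0.24. Cdk2ap2 was the most abundant of the class in the knockout library, at 81.22 FPKM, and Cdk18 in the control library, at 72.84. Cdk5 and Cdk5rap3 were lowest, at ratios of 0.955 and 0.946, and Cdk16 was level at 48.39 and 48.63 FPKM.

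Cdc42 and its effectors spread widely, with log2 ratios from -0.27 to 0.74. Cdc42 itself was at 189.31 FPKM (3577 counts) and 181.69 FPKM (3367 counts), a CPM ratio of 0.959 (0.915 to 1.01). Cdc42ep1, an effector of septin and actin organisation, was at 3.6 FPKM (81 counts) and 6.7 FPKM (148 counts), a CPM ratio of 1.86 (1.41 to 2.47). Its relatives Cdc42ep2 (36.21 and 29.96 FPKM) and Cdc42ep5 (90.21 and 76.77 FPKM) were lower, with ratios of 0.827 (0.721 to 0.948) and 0.851 (0.759 to 0.953). Cdc42se1 was at 34.58 and 47.31 FPKM, a CPM ratio of 1.38 (1.27 to 1.51), and Cdc42se2 at 91.36 and 81.86, a CPM ratio of 0.896 (0.846 to 0.949), so that paralogs of 1 family lay on opposite sides of 1. Cdc42bpg, a kinase that binds Cdc42, was at 15.93 and 18.9 FPKM.

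The 7 remaining Cdc names were close between the libraries, with log2 ratios from -0.07 to 0.27. Cdc34, a ubiquitin-conjugating enzyme, was at 35.66 and 43.1 FPKM, a CPM ratio of 1.21 (1.06 to 1.38), and Cdc37, a co-chaperone of kinases and the most abundant, at 39.54 and 44.75, a CPM ratio of 1.13 (1.03 to 1.24). Cdc73, of the PAF1 complex, had a log2 ratio of 0.11. Cdc40 and Cdc5l, splicing factors, had CPM ratios of 0.948 and 1.04, and Cdc123 and Cdc37l1 of 0.990 and 1.02. These 4 intervals include 1.

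Members with and without an E2F motif match had similar median ratios. The 14 cell cycle and replication members with a match, shown above, had a median log2 ratio of 0.24, with 11 above 0. Their range was from -0.19 (Pold1) to 0.52 (E2f7). E2f7 and Gins3, among the 11, passed 1 FPKM in the knockout library alone. The 37 measured members with a promoter window and no match had 33 above 0 and a median of 0.29. Of all measured genes 62.5% were above 0. Pcna, Ccnb1 and Cdc20 were among those without a match. The split rests on 2 exact forms in the first window listed. A gene without a match can thus still hold another form, or a site outside the window. Control of either group by E2F factors was not tested.

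Of 101 other genes of the pathway, taken from 8 lists, 80 were above 0 and 21 below, beside 62.5% of all measured genes above 0. Their median was 0.19 against 0.08 for all genes, and the lists differed. Among the 80, Ticrr (licensing), Dscc1 (fork) and Cdkn2a (CDK regulators) passed 1 FPKM in the knockout library alone. Being higher there was a condition of their being counted. All 15 mitotic genes were above 0, and 13 of their intervals lay above 1, beside 28% of all measured genes. Tpx2, a spindle assembly factor, was at 3.61 and 6.78 FPKM, Ttk, a checkpoint kinase, at 1.39 and 2.69, and Birc5 at 24.52 and 33.91. Of 18 licensing genes, 16 were above 0 and 1 was at least 2-fold higher, the helicase subunit Mcm2 (7.03 and 18.67 FPKM). Dtl and Gmnn, which restrain licensing, were the 2 below 0, at 2.53 and 2.06 FPKM and at 23.58 and 23.08. Of 14 fork and Okazaki fragment genes 13 were above 0, with Top2a at 16.71 and 21.82 FPKM.

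Partners and brakes of the E2Fs and CDKs went in both directions. Of 11 pocket proteins and partners 6 were above 0, beside 62.5% of all measured genes. Mybl2, which drives mitotic genes, was at 2.37 and 4.71 FPKM, a CPM ratio of 1.99 (1.5015 to 2.64), and Rb1, the retinoblastoma gene, at 17 and 13.33 FPKM, a CPM ratio of 0.784 (0.700 to 0.878). Lin52 (3.65 and 2.1 FPKM) was lowest and Tfdp1, the E2F partner, most abundant (24.22 and 30.81). Of 16 CDK regulators 11 were above 0, among them Cdkn2a, which was measured through the knockout library alone. Cdkn2a, which encodes inhibitors, had 0 and 15 counts, or 0 and 1.94 FPKM. Cdkn1c was at 5.1 and 9.41 FPKM, Cdkn2c at 5.54 and 3.32, Wee1 at 8.92 and 6.74 and Cdkn1a at 133.95 and 132.39.

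Nucleotide supply and the S phase checkpoint had medians of 0.10 and 0.05, beside 0.08 for all measured genes. The shares above 0 in both lists were near the 62.5% of all measured genes. Nucleotide supply had 6 of 9 above 0, with Dut at 6.94 and 9.89 FPKM. The S phase checkpoint list had 7 of 11 above 0, with Rad17 at 4.31 and 6.75 FPKM and Rad1 at 18.65 and 14.38. Chromatin assembly at forks had 6 of 7 above 0 and a median of 0.32, with Chaf1b at 3.26 and 4.6 FPKM and Asf1b at 6.98 and 5.3.

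Markers of other cells differed between the libraries as well. All 7 crypt stem cell markers were above 0 (summed FPKM 141.59 and 259.06, of which Gkn3 gave 10.3 and 93.88). Gkn3 bears the family name of the stomach markers Gkn1 and Gkn2, and which cells gave its counts was not tested. Below 0 were 7 of 8 enterocyte markers (25694.87 and 18826.31), 5 of 5 Paneth markers (8160.35 and 4119.95) and 5 of 5 goblet markers (4873.51 and 3398.58). Of all measured genes 62.5% were above 0 and 37.2% below. The 9 acinar markers of the pancreas summed to 55.41 and 2106.9 FPKM, and each passed the 2-fold mark. Stomach markers, summed over those that passed 1 FPKM in the knockout library alone, were at 1.71 and 32.7. Gkn2 and Muc5ac were listed at 0 in the control library. Red cell markers were at 56.73 and 218.22. B cell markers were at 40 and 22.65, T cell markers at 36.29 and 33.99 and plasma cell markers at 764.57 and 930.71. Endothelial markers were at 16.49 and 23.51 and fibroblast markers at 67.71 and 79.97. Of 6 germinal centre B cell markers, another dividing population, 3 reached 1 FPKM (18.55 and 16.89), and smooth muscle markers were at 349.57 and 340.87. The part of these markers in the ratios of the members was not tested.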

How the data were processed

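RNA of intestine was sequenced in 2 libraries, control and Setd2 KO, each a mixture of 3 littermates. Per the submitters' processing notes, the build was mm10 and the tools were BWA, Bowtie2 and RSEM, whose versions are not given in the sources used here. Per the file headers, the deposited sample files give expected counts and FPKM for each gene, and FPKM of both libraries were read from the authors' series table. Expected counts summed to 8809678 (control) and 8646358 (Setd2 KO), and genes at FPKM 1 or more numbered 12504 and 12932. RSEM divides reads that fit several genes. For 13 members such counts were not whole (no remainder in the listed value counted as whole), so that those values are less certain.

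Log2 ratios used a pseudocount of 1 FPKM and a filter of FPKM 1 in at least 1 library. Counting intervals used rounded expected counts (scipy 1.17.1), and a floor of 3 counts was 0.341 and 0.347 CPM. With 1 library a group, no test, standard error or paired fit was made. TMM factors came from edgeR 4.0.16, for scaling only. The interval and the 2-fold rule were tested on simulated counts. Positions and promoters came from RefSeq GRCm38.p6, and all 115 members had a position. Members, classes and lists were chosen with earlier results of these data known. All members of the cell cycle and replication classes could be named; in the other classes the 3 highest, the 3 lowest, the most abundant and any past 2-fold; in other lists the 2 highest, the 2 lowest and the most abundant. Any gene outside this rule is given for its role or was chosen after its values were seen. Of the genes written in the lists, Treslin, Trac and Igj were not matched by symbol and have no value here, and 1 gene is not reported here.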

Additional observations from a re-analysis of the deposited data

How the results depend on the processing

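No paired analysis was possible because each genotype has 1 library. For the same reason no replicate could be left out. Of the members measured, 0 changed sign under the other pseudocounts, filters, TPM or CPM. Under scaling to a median ratio of 0 and under TMM, 15 and 18 did, all from a positive value near 0; among them were Ccnd3, Pold2, Rpa3, Prim1, Rfc1 and Rfc4. Members below 0 then numbered 37 and 40, and the median of all members was 0.0776 and 0.0659. That of members of other function was 0.0154 and 0.0049. Intervals above 1 numbered 29 and 27, with 12 below 1 under each, and those of all measured genes were not counted. The median of the cell cycle and replication members stayed above 0 in every alternative run, from 0.16 (TMM) to 0.30 (pseudocount 0.01 FPKM). With a pseudocount of 0.1 or 0.01 FPKM, or with CPM, 2 of 108 members were at least 2-fold higher (E2f7 and Cdk14). Of all 13253 measured genes, 699, 758 and 425 were. Both members passed 1 FPKM in the knockout library alone. In these 3 runs the median of the 3 activator E2Fs was 0.56, 0.58 and 0.52. A filter of 50 counts, chosen after the values were seen, left 101 members, with a median of 0.15. Depth limits genes such as Gins1 and Gins3, with at most 33 counts a library.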
